A study of Mus musculus with 4 samples.

Results

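Binding of Runx3, the RUNX transcription factor that cytotoxic T cells need for their development, was mapped at 9 genes of diacylglycerol, protein kinase C (PKC) and inositol phosphate signalling: Prkch, Prkcq, Prkcb, Itpkb, Rasgrp1, Dgka, Dgkz, Bcl10 and Malt1. They are 9 of the 21887 protein-coding genes of the RefSeq table used here. A peak was assigned to a gene when its summit lay in the mm10 gene span or within 10 kb of it, which gave 49 of the 13166 peaks in the ChIP list and 61 of the 15891 peaks in the CUT&RUN list. The 9 genes were chosen by their peaks in these same lists, with the numbers and heights of those peaks known, so both are given as a description and were not tested.

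All libraries came from CD8 T cells of the spleens of wild type adult mice, isolated with magnetic beads against CD8a. The ChIP library, in which sheared chromatin is captured with an antibody, was made from 50000000 frozen cells pooled from 5 mice with rabbit serum raised against Runx3, diluted 1 in 200. The CUT&RUN library, in which the antibody tethers a nuclease that releases only nearby DNA, was made from 150000 fresh cells of 1 mouse with the same antiserum and dilution. ChIP peaks were called against a whole cell extract. The normal serum library of the CUT&RUN assay was not analysed here. There was 1 library per assay, so no difference between the assays has a replicate check, and cell number, freezing, mice, fragment selection and peak calling changed together with the assay.

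After duplicate removal the ChIP library held 9532996 fragments and the CUT&RUN library 14068364, from which the authors called the peaks. The lists were called at different thresholds, at q of 0.05 in ChIP and 1e-05 in CUT&RUN. A pileup is the number of fragments over a peak's summit, and each one below has an exact 95% Poisson interval that covers counting error only. All 6 T cell marker genes examined (Cd3d, Cd3e, Cd3g, Cd8a, Cd8b1 and Lck) had peaks in both lists, against 34.9% of all protein-coding genes. The neighbours Cd3d and Cd3g had the same best ranked peak in each list. None of the monocyte or macrophage genes (Csf1r, Lyz2 and Adgre1) or NK cell genes (Ncr1 and Klra8) had a peak. Neither did the erythroid genes Hba-a1 and Gata1. Among B cell genes, Cd79a had peaks in both lists and Ms4a1 and Cd79b in neither. Of the CD4 T cell genes, Cd4 had peaks in both and Zbtb7b in CUT&RUN alone. Occupancy of a gene is not its expression, so these counts do not measure the purity of the cells.

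When the T cell receptor is engaged, phospholipase C splits a membrane lipid into diacylglycerol and inositol trisphosphate. Diacylglycerol recruits PKC enzymes and the Ras activator RasGRP1. Diacylglycerol kinases remove it, and inositol trisphosphate releases calcium until kinases such as ITPKB convert it further. Downstream of PKC, BCL10 and the protease MALT1 assemble into a signalling complex that leads to activation of NF-kB.

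The start of 4 of the genes carried summits of both lists within the 300 bases of a RefSeq promoter window, which runs from 250 bases before to 50 bases after a transcription start. RefSeq windows (GRCm38.p6, the patched release of mm10) were at hand for 7 of the 9 genes, 11 windows in all, and Prkch and Malt1 had none in the table. Of all 32851 windows, 7.17% held summits of both lists. The 250 bases before the start of these 4 genes are printed 5′ to 3′ on the strand of the gene, because they are the places where Runx3 summits lay directly at a start. Capitals run from the summit of one assay to the summit of the other, both included.
Prkcb, chr7:122288875-122289124, plus strand: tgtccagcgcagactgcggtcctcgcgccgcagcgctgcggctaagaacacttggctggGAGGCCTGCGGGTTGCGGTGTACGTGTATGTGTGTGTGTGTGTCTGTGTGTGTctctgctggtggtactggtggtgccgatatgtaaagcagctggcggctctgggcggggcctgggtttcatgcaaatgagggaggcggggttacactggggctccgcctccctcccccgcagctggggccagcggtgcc
Itpkb, chr1:180330226-180330475, plus strand: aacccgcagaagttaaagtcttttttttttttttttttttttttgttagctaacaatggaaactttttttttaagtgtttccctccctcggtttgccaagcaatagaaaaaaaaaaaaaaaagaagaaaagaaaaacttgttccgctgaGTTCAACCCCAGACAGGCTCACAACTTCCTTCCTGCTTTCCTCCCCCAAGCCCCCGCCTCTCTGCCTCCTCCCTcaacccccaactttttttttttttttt
Dgkz, chr2:91963564-91963813, minus strand: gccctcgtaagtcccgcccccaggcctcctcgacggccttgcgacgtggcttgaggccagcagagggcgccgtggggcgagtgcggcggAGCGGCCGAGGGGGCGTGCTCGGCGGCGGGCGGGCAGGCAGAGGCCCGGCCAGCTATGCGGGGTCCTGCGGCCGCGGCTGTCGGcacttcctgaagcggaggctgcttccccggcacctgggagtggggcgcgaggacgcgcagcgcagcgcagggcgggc
Bcl10, chr3:145924012-145924261, plus strand: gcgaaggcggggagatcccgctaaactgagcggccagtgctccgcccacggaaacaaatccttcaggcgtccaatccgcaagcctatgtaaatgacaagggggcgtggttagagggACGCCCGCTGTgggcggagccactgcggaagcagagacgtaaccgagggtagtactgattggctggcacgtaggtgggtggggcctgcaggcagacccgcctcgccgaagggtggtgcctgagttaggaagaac

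The capitals spanned 11 bases at Bcl10, 53 at Prkcb, 74 at Itpkb and 84 at Dgkz. The RUNX letters TGTGGT and TGCGGT were searched on both strands of all 11 windows, and 1 window, that of Prkcb, held a match. It had TGCGGT at 2 places on the strand of the gene, starting 236 and 178 bases before the transcription start. The copy at chr7:122288947-122288952 lay inside the capitals, with its centre 15 bases from the ChIP summit and 36 bases from the CUT&RUN summit. The other copy lay 42 and 94 bases from those summits.

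The letters TGCGGT occurred in 22.2% of the 2356 windows with summits of both lists, 6.45% of all windows and 4.67% of windows with no summit. TGTGGT occurred in 21.5%, 16.8% and 17.0% of the same sets, and the ETS letters CCGGAA in 37.1%, 14.9% and 10.5%. Windows with summits of both lists also had a higher mean GC content, 63.0%, against 53.8% over all windows and 52.0% in windows with no summit, and the part of GC content in these shares was not tested. In the 11 windows, which covered 7 of the 9 genes, CCGGAA occurred once, 34 bases after the start of Bcl10. It lay 170 and 160 bases from the ChIP and CUT&RUN summits there. The AP-1 letters TGACTCA occurred in none of the 11 windows. At Itpkb, Dgkz and Bcl10 the searched RUNX letters were not in the window.

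ChIP peaks were found at 8 of the 9 genes, and 40.2% of all protein-coding genes had one. CUT&RUN peaks were found at all 9, and 45.1% of all protein-coding genes had one. A peak of either list was found at all 9 as well, against 50.5% of all protein-coding genes, and peaks of both lists at 8, against 34.9%. At 7 genes a ChIP peak overlapped a CUT&RUN peak, against 31.5% of all protein-coding genes. Because their peaks chose the genes, nothing is read from these counts. The exceptions were Rasgrp1, whose peaks did not overlap, and Malt1, which had no ChIP peak. The median was 4 peaks per gene in each list, and over all protein-coding genes it was 0, with a median gene span of 62.9 kb at the 9 genes and 17.2 kb over all.

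**Figure D1:**
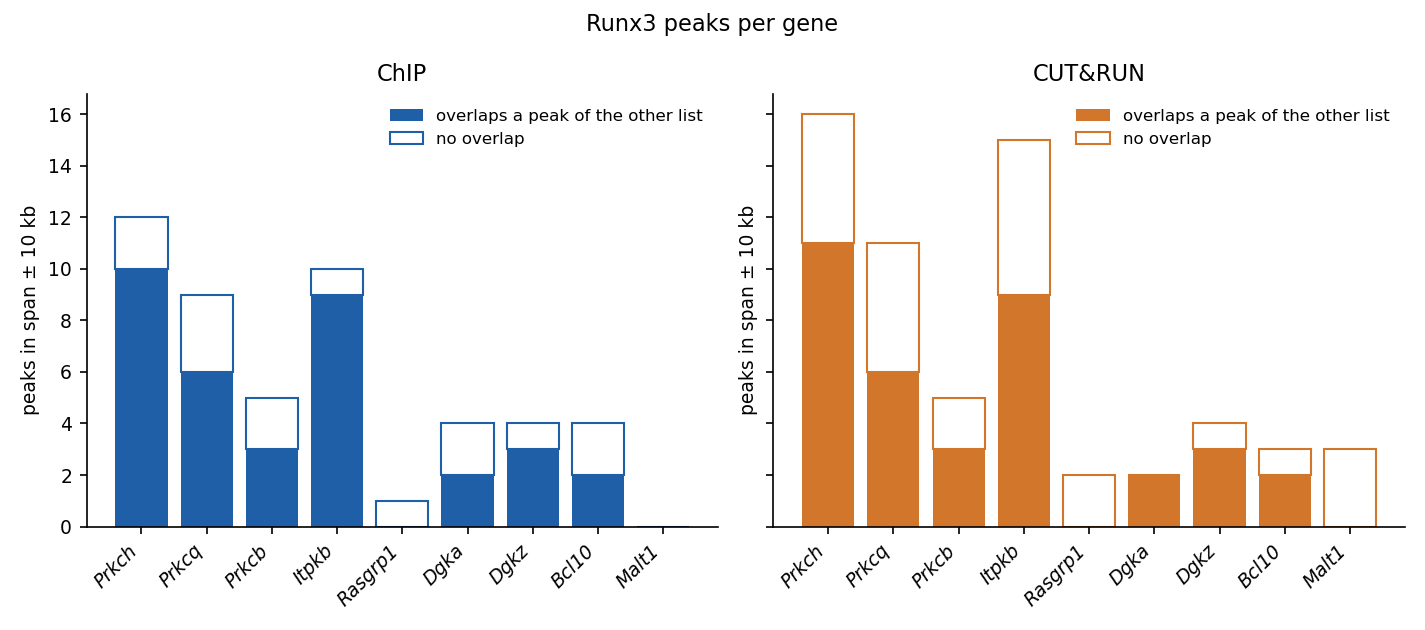
Number of Runx3 peaks with a summit in the gene span or within 10 kb of it, for ChIP (left) and CUT&RUN (right). Filled bars are peaks that overlapped a peak of the other list by at least 1 bp and open bars are those that did not; Prkch had the most in both lists, with 12 and 16 peaks, and Malt1 had 0 in ChIP and 3 in CUT&RUN.

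The PKC gene Prkch had the most peaks of the group in both lists. It encodes PKC-eta, one of the PKC enzymes that respond to diacylglycerol without calcium, and spans chr12:73584796-73778185. The ChIP list held 12 peaks there, 10 of them shared with CUT&RUN, and the CUT&RUN list held 16, with 11 of them shared. Of all 21887 protein-coding genes, 6 including Prkch had at least 10 such shared ChIP peaks, by counts not scaled by gene length. Its span was 193 kb, and it had 5.62 ChIP and 7.50 CUT&RUN peaks per 100 kb of span and flanks. Bcl10, Dgka, Itpkb, Dgkz and Prkcq had more ChIP peaks per 100 kb, and Itpkb and Bcl10 more CUT&RUN peaks.

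The higher shared peaks of Prkch stood at its lower-coordinate edge, in a cluster just inside it and at places deep in the gene. At the lower-coordinate edge of the gene the ChIP summit had a pileup of 27 (95% interval 17.8 to 39.3) and the CUT&RUN summit one of 66 (51.0 to 84.0). They lay 0.076 and 0.119 kb outside the span, inside the predicted gene LOC115488016. Between 8.72 and 20.5 kb inside that edge stood 4 ChIP peaks with pileups of 28, 28, 35 and 26. The CUT&RUN peaks that overlapped them had pileups of 96, 75 and 127, and of 76 and 43 under the last and widest, a ChIP peak of 1138 bp. The summits of the highest of these, at 73603815 in ChIP and 73603819 in CUT&RUN, lay 4 bp apart.

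Farther inside Prkch, 115 kb from the lower edge, the best ranked ChIP peak of the gene had a pileup of 37 (26.1 to 51.0) and stood in the top 2.16% of its list. Its CUT&RUN partner had a pileup of 79 (62.5 to 98.5). At 131 kb a ChIP peak of 24 (15.4 to 35.7) paired with a CUT&RUN peak of 116 (95.9 to 139). Of the 12 ChIP peaks of Prkch, 7 were in the top 10% of the list, and of the 16 CUT&RUN peaks 5 were. The Poisson intervals of these 7 ChIP peaks overlapped one another. The 2 ChIP peaks without a partner had pileups of 9 (4.12 to 17.1) and 14 (7.65 to 23.5). The 3 lowest shared ChIP peaks of the gene were as low, with pileups of 10, 7 and 9.

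Other protein-coding genes were compared with Prkch by the Euclidean distance between counts of ChIP peaks, CUT&RUN peaks and shared ChIP peaks, over 1 library per assay. The 9 genes themselves and genes overlapping Prkch were left out. The nearest were then St8sia1 with 10, 14 and 8, Foxp1 with 15, 18 and 10, and Thada with 15, 17 and 12. Itpkb, 1 of the 9 genes, had 10, 15 and 9, closer to the 12, 16 and 10 of Prkch than the counts of St8sia1.

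Prkcq encodes PKC-theta, the PKC enzyme that gathers at the contact between a T cell and the cell it recognises. All 9 of its ChIP peaks and all 11 of its CUT&RUN peaks lay inside the span (chr2:11171905-11301226), none within 1 kb of an edge, and its promoter window held no summit. The pileups of the ChIP peaks were 11, 9, 19, 8, 25, 8, 7, 21 and 8 in order along the gene. Those of the CUT&RUN peaks were 15, 20, 26, 33, 43, 83, 12, 21, 18, 22 and 17. Both lists thus had their highest summit at the same place, 31.7 and 31.6 kb inside the lower edge, with 25 (16.2 to 36.9) in ChIP and 83 (66.1 to 103) in CUT&RUN and the summits 27 bp apart.

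The 6 shared pairs of Prkcq lay in the stretch from 11181775 to 11218352. At 11181775 both lists named the same base as the summit, with pileups of 11 (5.49 to 19.7) in ChIP and 20 (12.2 to 30.9) in CUT&RUN. Within it, ChIP peaks of 9 at 11193012 and 8 at 11205079 and a CUT&RUN peak of 26 at 11187361 had no partner. Outside it no peak was shared, with a ChIP peak of 8 at 11241264 and CUT&RUN peaks of 15 at 11173926 and of 18, 22 and 17 from 11254659 on. Just beyond the window of 10 kb, 12.1 and 12.0 kb outside the span, lay a further pair with pileups of 30 (20.2 to 42.8) in ChIP and 56 (42.3 to 72.7) in CUT&RUN, which the rule did not count. The outermost summits that the rule did count lay 8.67 kb outside Dgkz in ChIP and 8.63 kb in CUT&RUN, with pileups of 17 and 18.

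Prkcb encodes PKC-beta, a calcium-dependent PKC best known from B cell receptor signalling. It is the longest of the 9 genes (345 kb, chr7:122289104-122634402) and had 5 peaks in each list, or 1.37 per 100 kb of span and flanks in both. For Itpkb the same figures were 8.74 in ChIP and 13.1 in CUT&RUN. The ChIP pileups along the gene were 15, 8, 21, 17 and 10, and the CUT&RUN pileups were 41, 23, 48, 27 and 18. The pair at the promoter, whose sequence is printed above, had 15 (8.40 to 24.7) in ChIP and 41 (29.4 to 55.6) in CUT&RUN. The other 2 pairs lay 101 and 105 kb inside the gene, and the last summit of either list, in CUT&RUN, lay 125 kb inside it. The rest of the gene held no peak.

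The highest ChIP peak of Prkcb, at 122388075 with a pileup of 21 (13.0 to 32.1), had no overlap in CUT&RUN, where the nearest summit was 2269 bp away. It stood in the top 15.0% of the ChIP list and was the highest ChIP peak without a partner at these genes, level with a peak of 21 near Dgka. The highest CUT&RUN peak of Prkcb, with 48 (35.4 to 63.6), sat over one of its lower ChIP peaks, with 10 (4.80 to 18.4).

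**Figure D2:**
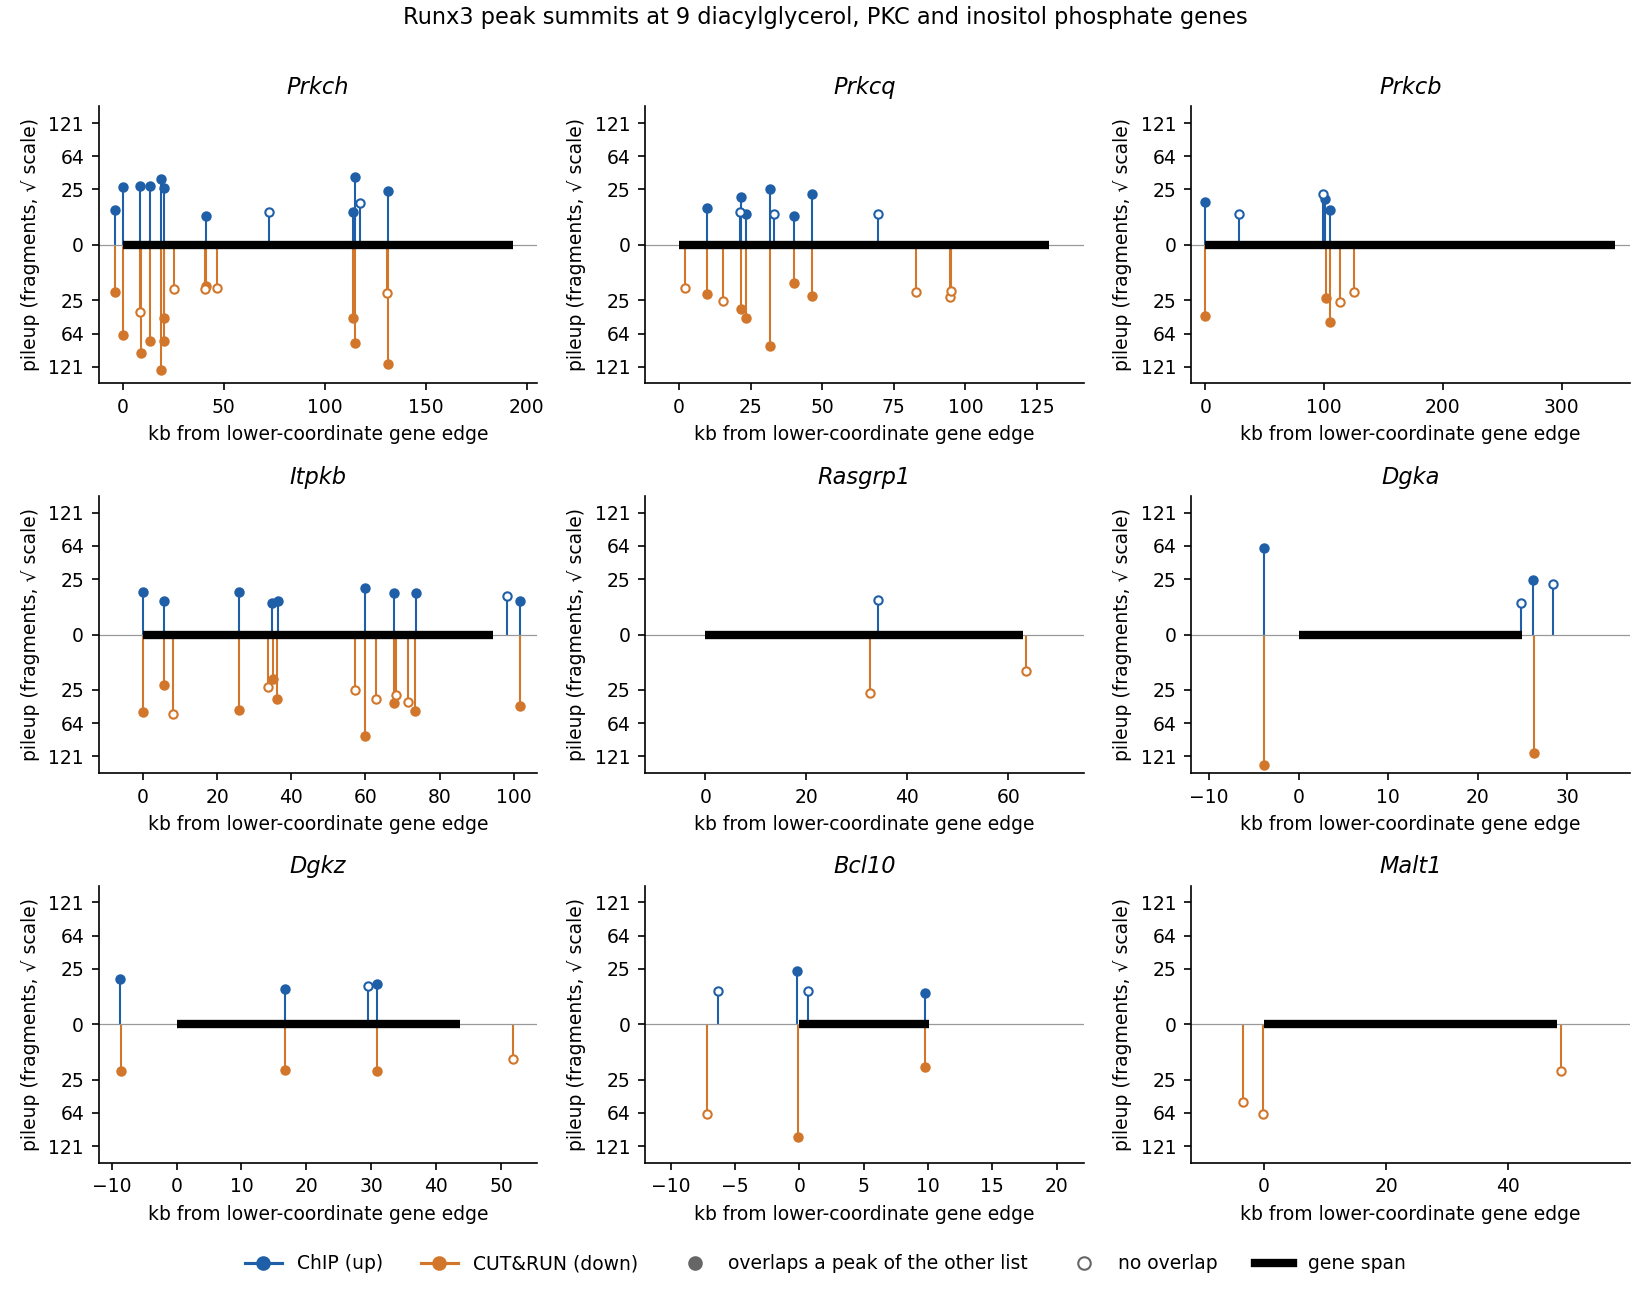
Position and height of every peak summit at the 9 genes. The horizontal axis is the distance in kb from the lower-coordinate edge of the gene and the black bar is its span; lines up are ChIP pileups and lines down CUT&RUN pileups in fragments on a square root scale, with filled points for peaks that overlapped the other list and open points for the rest. Pairs of Prkch stand from just before its lower edge to 41 kb and from 114 to 131 kb, with no peak beyond in its span of 193 kb. Itpkb holds pairs along much of the gene, those of Prkcb stand at its start and near 100 kb, and Malt1 has CUT&RUN peaks alone.

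Itpkb encodes the kinase that phosphorylates inositol trisphosphate, an enzyme that T cells of the mouse need to mature in the thymus. In its span of 94.4 kb and 10 kb on each side (chr1:180330390-180424802 for the span) it had 10 ChIP and 15 CUT&RUN peaks, and 9 of each overlapped the other list. With 9 or more shared ChIP peaks it was among 11 of the 21887 protein-coding genes, by counts not scaled by gene length. Its ChIP peaks had pileups from 8 to 18 with a median of 13, against 12 over the whole list. None of them was in the top 10% of the list. The CUT&RUN pileups ran from 16 to 84 with a median of 37. The best pair lay about 60 kb from the start, with 18 (10.7 to 28.4) in ChIP and 84 (67.0 to 104) in CUT&RUN and the summits 19 bp apart. The pair at the start had 15 (8.40 to 24.7) in ChIP and 49 (36.3 to 64.8) in CUT&RUN. The 6 CUT&RUN peaks without a partner had pileups of 52, 22, 25, 34, 30 and 37, above the CUT&RUN median of 25 in 4 cases. The pair at 180432050 and 180432069 lay 7.25 and 7.27 kb beyond the span and was closer to the neighbouring gene Stum.

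Rasgrp1 encodes the exchange factor that diacylglycerol recruits to activate Ras in T cells. It had few peaks, 1 in ChIP and 2 in CUT&RUN, and none of them overlapped. The ChIP summit at chr2, 117314118 had a pileup of 10 (4.80 to 18.4) and lay 1521 bp from the CUT&RUN summit at 117312597, with 28 (18.6 to 40.5). The other CUT&RUN peak, with 11 (5.49 to 19.7), lay 555 bp before the transcription start and ranked in the last 2% of the list, at 15601 of 15891. No summit of either list fell in its promoter window.

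The diacylglycerol kinases, which turn diacylglycerol into phosphatidic acid and so restrain the pathway, differed from each other. At Dgka (chr10:128720131-128745084) stood the highest peak of all 9 genes in both lists. In ChIP the summit at 128716285 reached a pileup of 61 (46.7 to 78.4), rank 34 of 13166. In CUT&RUN the summit at 128716326 reached 139 (117 to 164), rank 191 of 15891. This pair lay 3.85 and 3.81 kb beyond the end of Dgka, inside the neighbouring gene Pmel, which encodes a protein of pigment granules. A second pair lay 1.24 and 1.28 kb before the outermost transcription start of Dgka. It had 24 (15.4 to 35.7) in ChIP and 115 (94.9 to 138) in CUT&RUN, in the top 9.57% and 1.92% of the lists. The remaining 2 ChIP peaks had no partner, with 8 (3.45 to 15.8) just inside Dgka and 21 (13.0 to 32.1) nearer to Pym1. No CUT&RUN summit lay inside the Dgka span.

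Dgkz (chr2:91932822-91976443) had 4 peaks in each list, and 3 of each overlapped the other. The ChIP pileups were 17, 10, 12 and 13, against a list median of 12. The CUT&RUN pileups were 18, 17, 18 and 10. The pair in the printed promoter window, with 13 (6.92 to 22.2) in ChIP and 18 (10.7 to 28.4) in CUT&RUN, lay 161 and 78 bases before a transcription start inside the gene. Another pair, with 10 (4.80 to 18.4) and 17 (9.90 to 27.2), lay 877 and 884 bases after another start. The best ranked pair lay inside the neighbouring gene Chrm4. Dgkz was the only one of the 9 genes with no CUT&RUN pileup above the median of that list, 25.

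Bcl10, which encodes the adaptor that binds MALT1, is the shortest of the 9 genes (10.1 kb, chr3:145924262-145934366), with 4 ChIP and 3 CUT&RUN peaks. The pair in its promoter window had 23 (14.6 to 34.5) in ChIP and 103 (84.1 to 125) in CUT&RUN, with the summits 10 bp apart and 134 and 124 bases before the start. It stood in the top 11.4% of the ChIP list and 2.59% of the CUT&RUN list. A weaker pair, with 8 (3.45 to 15.8) and 15 (8.40 to 24.7), lay 0.308 and 0.299 kb inside the other edge. Before the gene the lists parted. CUT&RUN had a summit of 66 (51.0 to 84.0) 7.17 kb before the start, in the top 7.32% of the list, and the nearest ChIP summit, with 9 (4.12 to 17.1), lay 862 bp away without overlap. The last ChIP peak, with 9, lay 699 bases after the start.

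Malt1, the protease that acts with BCL10, had no peak in the ChIP list and 3 in the CUT&RUN list (chr18:65430939-65478888). The highest, with a pileup of 66 (51.0 to 84.0), lay 0.149 kb outside the lower edge in the top 11.8% of the list. The others had 49 (36.3 to 64.8) at 3.44 kb outside the same edge and 18 (10.7 to 28.4) at 0.664 kb outside the other. The nearest ChIP summit to the span lay 14.5 kb outside it, with 10 (4.80 to 18.4), and overlapped a CUT&RUN peak with 48 (35.4 to 63.6). At 16.0 kb a stronger pair had 25 (16.2 to 36.9) in ChIP and 64 (49.3 to 81.7) in CUT&RUN. Absence from the ChIP list says only that no position in the window passed that list's threshold.

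Ordered by the best ranked peak in ChIP, the pileups ran Dgka 61, Prkch 37, Prkcq 25, Bcl10 23, Prkcb 21, Itpkb 18, Dgkz 17 and Rasgrp1 10. In CUT&RUN they ran Dgka 139, Prkch 127, Bcl10 103, Itpkb 84, Prkcq 83, Malt1 66, Prkcb 48, Rasgrp1 28 and Dgkz 18. Every gene's interval overlapped that of the next gene in both orders, which does not show that neighbours were equally high, and their differences were not tested. In both lists Dgka and Prkch came at the top, and the intervals of Dgka did not reach that of Prkcq. In CUT&RUN the interval of Dgka (117 to 164) overlapped that of Bcl10 (84.1 to 125). Both best peaks of Dgka lay outside its span, inside Pmel. Without them the best of Dgka were 24 (15.4 to 35.7) in ChIP and 115 (94.9 to 138) in CUT&RUN. Both were below those of Prkch, and the ChIP value was also below that of Prkcq, whose interval it overlapped.

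**Figure D3:**
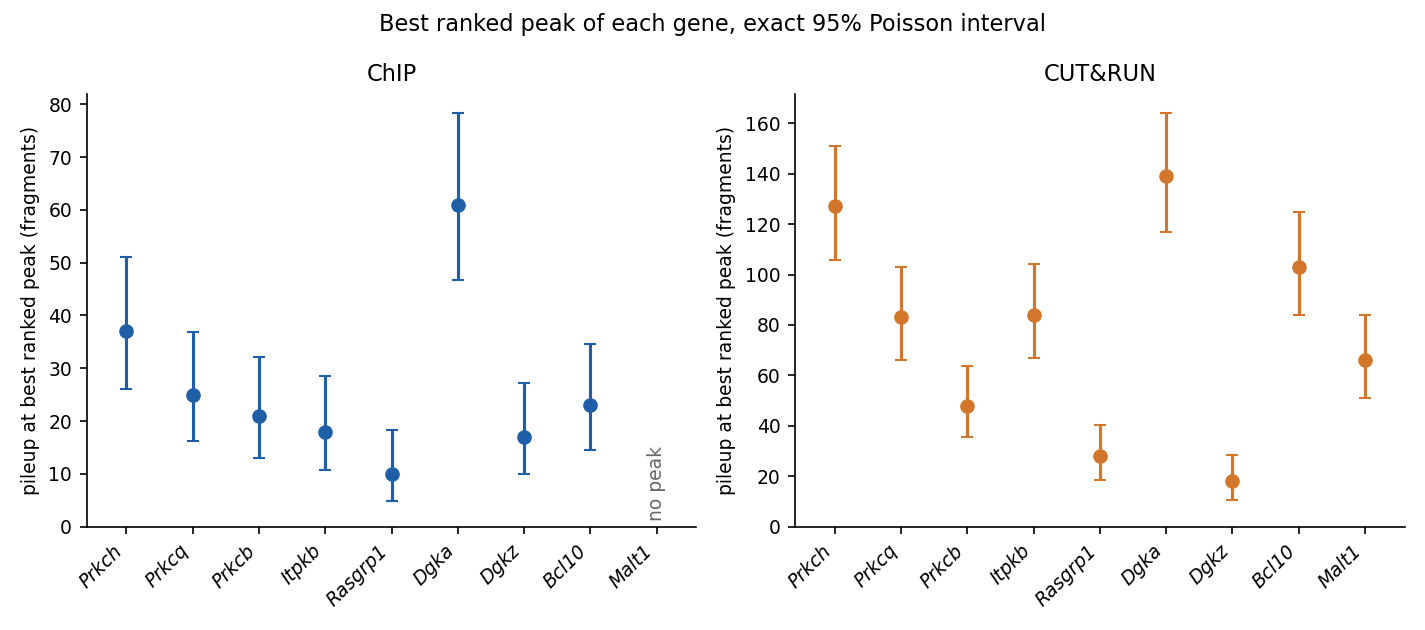
Pileup in fragments at the best ranked peak of each gene, for ChIP (left) and CUT&RUN (right), with exact 95% Poisson intervals as bars; the vertical scales differ. Dgka is highest in both, at 61 and 139, with peaks that lie inside the neighbouring gene Pmel. Malt1 has no ChIP peak.

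Over the 9 genes, 35 of the 49 ChIP peaks overlapped a CUT&RUN peak (71.4%, 95% Clopper-Pearson interval 56.7 to 83.4), against 66.2% of all ChIP peaks. Of the 61 CUT&RUN peaks, 36 overlapped a ChIP peak (59.0%, 45.7 to 71.4), against 58.8% of all CUT&RUN peaks. Both shares were thus near those of the whole lists. The median pileup was 15 for shared and 9 for unshared ChIP peaks at the 9 genes, and 43 for shared and 22 for unshared CUT&RUN peaks. Over the whole lists the same medians were 14 and 9 in ChIP and 33 and 18 in CUT&RUN. By rank, 10 ChIP peaks and 11 CUT&RUN peaks of the genes stood in the top 10% of their list.

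Between the summits of the 36 overlapping pairs the median distance was 27.5 bp, with quartiles of 15.2 and 46 bp and 77.8% of pairs within 50 bp. Over all 9358 pairs of the lists the median was 39 bp and 59.5% lay within 50 bp. In all 36 pairs the CUT&RUN pileup was at least as high as the ChIP pileup, at a ratio of 1 to 5.38 and a median of 2.70. The pileups were not scaled here for the fragments kept, 14068364 in CUT&RUN and 9532996 in ChIP, or their mean length, 63 and 115 bp. The ratios therefore do not compare the strength of binding. Over all 9358 pairs the median ratio was 2.22 and the lowest 0.0309. Pairs of Dgkz had ratios of 1.06 to 1.70 and those of Itpkb 2 to 4.67. Across the 36 pairs the log pileups of the assays had a Pearson r of 0.77 and a Spearman rho of 0.76, against 0.67 and 0.52 over all pairs. The pairs share the same 2 libraries, many lie in the same gene, and 1 ChIP peak enters with 2 CUT&RUN partners.

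**Figure D4:**
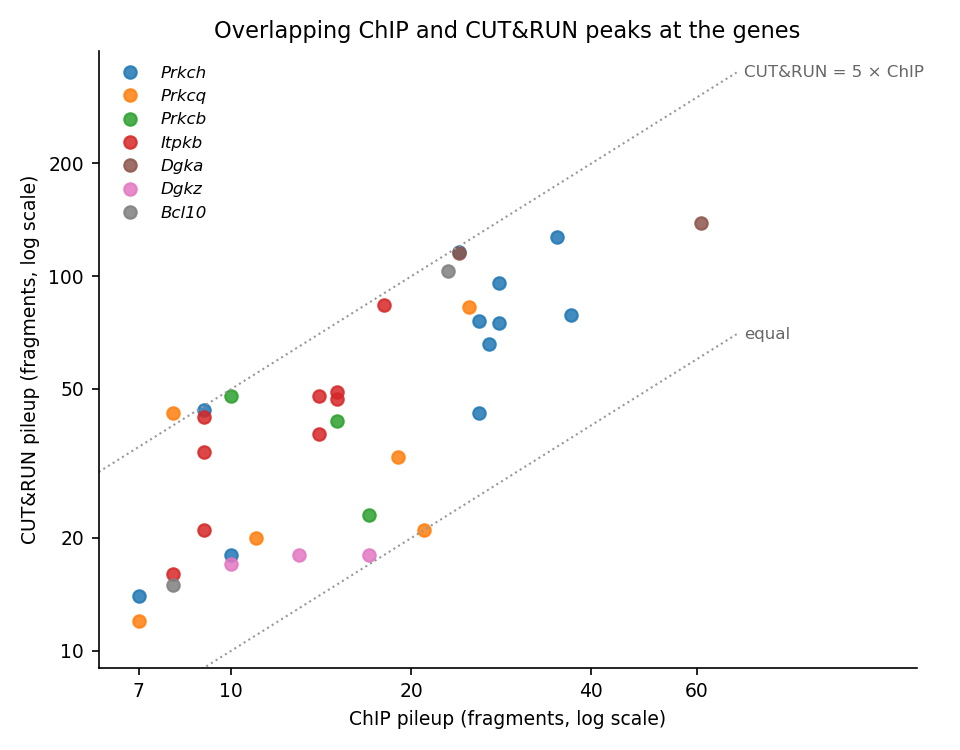
ChIP pileup (horizontal) and CUT&RUN pileup (vertical) of the 36 overlapping peak pairs, in fragments on log scales, coloured by gene; dotted lines mark equal pileups and a CUT&RUN pileup of 5 times that of ChIP. Pairs of Prkch and Dgka reach the upper right, and those of Dgkz lie near the line of equal pileups.

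Peaks at these genes lay mostly inside them and away from their ends. Inside the spans were 38 ChIP and 46 CUT&RUN summits, of which 34 and 45 lay more than 1 kb from either end. Within 1 kb of an end of any protein-coding gene were 9 ChIP summits (18.4%, 8.76 to 32.0) and 9 CUT&RUN summits (14.8%, 6.98 to 26.2), against 36.3% and 36.7% over the whole lists. The median span of the 9 genes was longer than that of all protein-coding genes, as given above, and the part of gene length in this difference was not tested. For 6 ChIP and 6 CUT&RUN peaks another protein-coding gene was nearer, namely LOC115488016, Stum, Pmel, Pym1, Chrm4 or Creb3l1.

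The expected background behind the fold varied between the genes in CUT&RUN and was a single fixed value in ChIP. MACS2 set the same expected background for all 49 ChIP peaks, so their folds follow the pileup. It was within 1% of the list's median for 97.2% of all ChIP peaks, so it does not measure local background at these genes. In CUT&RUN the background ran from 0.530 to 4.71 times the list's median at these genes and was highest among the crowded peaks of Prkch. Its lowest value was identical at a peak of Dgkz and one of Malt1, on different chromosomes, and is not read as local there. A CUT&RUN pileup of 66 had a fold of 30.3 and rank 1164 before Bcl10, a fold of 25.9 and rank 1434 at Prkch, and a fold of 20.5 and rank 1871 at Malt1.

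Of 53 other genes of the same pathway, 32 had a ChIP peak (60.4%, against 40.2% of all protein-coding genes) and 36 a CUT&RUN peak (67.9%, against 45.1%). Peaks of both lists were found at 29, against 34.9% of all protein-coding genes, and 14 genes had neither. The list was chosen with earlier results of these data known, and its median span was 57.0 kb, against 17.2 kb over all protein-coding genes. Among the genes for enzymes of lipids and inositol phosphates, Inpp5d, which encodes the inositol phosphatase SHIP, had the best ranked peak of the list in both assays. It had 33 (22.7 to 46.3) in ChIP and 186 (160 to 215) in CUT&RUN, ranks 454 and 79. Dgkg had a pair at its edge with 30 (20.2 to 42.8) and 66 (51.0 to 84.0). Plcg2, a phospholipase C gene of B cells, had a pair with 8 (3.45 to 15.8) in ChIP, near the bottom of its list, and 69 (53.7 to 87.3) in CUT&RUN, in the top 7.19%.

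Among the other genes of the list, Itpr1, which encodes an inositol trisphosphate receptor, had 6 ChIP and 9 CUT&RUN peaks. Their best pileups were 33 (22.7 to 46.3) and 83 (66.1 to 103). Prkd2, a protein kinase D gene, had 4 ChIP peaks, all of them shared, with a best pileup of 31 (21.1 to 44.0), and 4 CUT&RUN peaks with a best of 47 (34.5 to 62.5). Rasgrp2, a relative of Rasgrp1 that is best known from platelets, had 3 ChIP and 4 CUT&RUN peaks with best pileups of 29 (19.4 to 41.6) and 59 (44.9 to 76.1). Ikbkb, which encodes a kinase of the NF-kB pathway, had a pair with 19 (11.4 to 29.7) and 83 (66.1 to 103). Dgkb, Dgki, Dgkk, Impa1, Itpka, Plcb4, Prkcd, Prkd1 and Prkd3 were among the 14 genes with no peak in either list.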

How the data were processed

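Runx3 binding in mouse splenic CD8 T cells was taken from 2 deposited peak lists, 1 per assay, each called on 1 library. The submitters' processing notes name Bowtie (version not given in the sources used here), mm10 and MACS2. Version 2.1.1.20160309 of MACS2, per the file headers, used paired fragments, at most 1 per position, with the whole cell extract as control for ChIP (q of 0.05) and no control for CUT&RUN (q of 1e-05, on an alignment whose name refers to nucleosome-free fragments). The deposited pileup is a coverage signal at the summit, the deposited fold is a ratio to the expected background (read here as pileup plus 1 over background plus 1, from which the background was computed), and p and q are deposited as −log10 values.

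Peaks were ranked within a list by q, then pileup, then number, and a peak with 1 bp or more in common with a peak of the other list was called shared, which was checked with bedtools 2.31.1. A gene's peaks had summits in its RefSeq span (GRCm38.p6) extended by 10 kb. All 9 genes and the 53 others matched the table by symbol. The counting steps were tested on simulated peaks. Duplicate removal took 80.3% of ChIP and 21.4% of CUT&RUN fragments, and 12 PCR cycles were used throughout, per the labels. Python 3.11.15 with scipy 1.17.1 was used. With 1 library per assay nothing was tested between the assays.

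The genes and lists were chosen with earlier results of these data known. All 9 genes were named, with every peak of genes holding 6 or fewer per list; of the 53, those among the 5 best ranked in either list and the first 10 without a peak, in alphabetical order. Some genes that fall under these rules or the marker lists are not reported here. The 3 genes most like Prkch, which has the most shared peaks, were named by the distance between their counts. The 9 genes and genes overlapping Prkch were not candidates. For Prkch, Prkcq and Itpkb the rule named the best ranked peak of each list; their other peaks and those outside the window were picked after their values were seen. Alternatives varied the window, ChIP threshold, peak strength, gene assignment, background, overlap, edge distance and motif letters.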

Additional observations from a re-analysis of the deposited data

How the results depend on the processing

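Of 81 recalculated values for 12 results, 72 kept their size (a count within 1.5 times, a share within its interval) and 9 moved. When ChIP was held to a q of 1e-05, 28 ChIP peaks were left at the genes, and 39.3% of their CUT&RUN peaks overlapped one. In the stronger 0.5 of each list, 27 ChIP and 32 CUT&RUN peaks were left, and 20 and 22 of the other pathway genes were occupied. With a reciprocal overlap of 0.5, 40.8% of ChIP and 32.8% of CUT&RUN peaks were shared, and the cause was not tested; the other changes came with fewer peaks by construction. Gene spans alone, windows of 1 or 50 kb, nearest-gene assignment and removal of high-background peaks moved none of the results they were applied to. Within 50 kb all 9 genes had a ChIP peak. Removal of high-background peaks, above 3 times the list median, cut the CUT&RUN peaks at the genes from 61 to 49. The removed peaks lay at Prkch, Itpkb and Dgka alone. They included the best ranked CUT&RUN peaks of these 3 genes, with pileups of 127, 84 and 139 and backgrounds of 4.39, 3.72 and 3.95 times the median. The counts of single genes and the order of best peaks were not recalculated without them. The share of ChIP peaks that overlapped a CUT&RUN peak fell from 71.4% to 57.1%, just inside the interval of 56.7 to 83.4. TGTGGT alone matched 0 of the 11 promoter windows, which covered 7 of the 9 genes, an alternative chosen after seeing the data. No paired analysis was possible because each assay had 1 library. Counting error is wide at weak peaks of either list: a pileup of 10 has an interval of 4.80 to 18.4. Depth was not varied.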
